A study of Mus musculus with 2 samples.

Results

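The vacuolar ATPase, the cathepsins and the lysosome-associated membrane proteins were examined in haematopoietic stem cells (HSC) of mouse bone marrow. Members were taken by gene symbol. Symbols beginning with Atp6v or Atp6ap, symbols of Cts followed by 1 letter (without Ctsg) and symbols of Lamp followed by a digit gave 40 of the 12393 genes with a probe set annotated to a single gene. They comprised 21 vacuolar ATPase genes, 16 cathepsin genes and 3 Lamp genes. One group was primitive HSC and the other was maturing HSC, with 1 Affymetrix array each. Both were sorted by flow cytometry after a short culture, and neither had been treated. Mouse strain, age, number of animals and the surface phenotype of each sort are not stated in the labels. Each array was hybridised with cRNA made from the inserts of 1 PCR-amplified, size-fractionated and cloned cDNA library, so it reports the makeup of that library. With 1 array a group there was no replicate and no test, and every difference below describes this pair of libraries. Fewer cells of a type and less RNA per cell cannot be told apart in such bulk libraries.

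The vacuolar ATPase is a rotary proton pump. Its cytosolic V1 sector splits ATP, its membrane V0 sector carries protons into the lumen, and the acid so made activates the hydrolases of the lysosome. Cathepsins are the proteases of that compartment, most of them cysteine proteases. The heavily glycosylated LAMP proteins line its limiting membrane. In blood-forming cells, lysosomes digest material delivered by endocytosis and autophagy, and the lysosomal surface is where mTORC1 senses amino acids.

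Values are signal intensities in arbitrary units. Intensities below a floor of 441.0, the median of both arrays pooled, were treated as not measured. A gene below it on 1 array has a ratio that is a lower bound of the difference ("at least"). Ratios are log2 of primitive over maturing HSC, so a negative ratio means a lower signal in primitive HSC. Each gene is represented by its probe set of highest mean intensity. For scale, probe sets of 1 gene above the floor on both arrays differed in their ratio with an SD of 0.82 on the log2 scale over 1318 genes.

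Of the 40 genes, 32 were measured. Among these, 22 were lower in primitive HSC and 10 were higher. The 22 make up 68.8%, where 47.3% of all 8852 measured genes were lower. With scaling by the hybridisation controls in place of the mean of all probe sets (control scaling), 30 were lower and 2 higher. That scaling lowered the whole array, and the share of all measured genes that were lower was not counted under it. The median log2 ratio of the 32 genes was -0.45, where that of all measured genes was 0.07. Both include bounds. For the 23 members above the floor on both arrays the median was -0.15, where that of all such genes was 0.09. By control scaling the medians were -1.29 for the 32 genes and -0.74 for all genes. The gap between them was -0.55, beside -0.52 in the main setting. Some other settings gave a smaller gap between measured members and all measured genes. It was -0.21 when each gene took its median probe set, -0.36 after quantile normalization and -0.43 after lowess. A percentile 75 floor gave -0.30 and a percentile 25 floor gave -0.37. Among the 23 members measured on both arrays, 15 ratios (65.2%) were smaller than the 0.82 spread between probe sets, as were 60.3% of such ratios over all genes.

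Past 4-fold in either direction were 5 of the 32 genes, where 8.13% of all measured genes were. At least 4-fold lower in primitive HSC were 4 of the 32 genes, Ctsc, Atp6ap2, Atp6v1c1 and Ctse. They make up 12.5%, against 4.69% of all measured genes. At least 4-fold higher was only Atp6v1f in the main setting, 3.13% of the 32 genes against 3.45% of all. At least 2-fold, 11 genes (34.4%) were lower and 2 (6.25%) were higher, where 17.6% and 15.6% of all measured genes were. With 32 genes and 1 array a group, these shares describe the 2 libraries only. Of the 9 members below the floor on 1 array, 8 were below it in primitive HSC (88.9%), where 49.2% of such genes were among all genes.

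**Figure D1:**
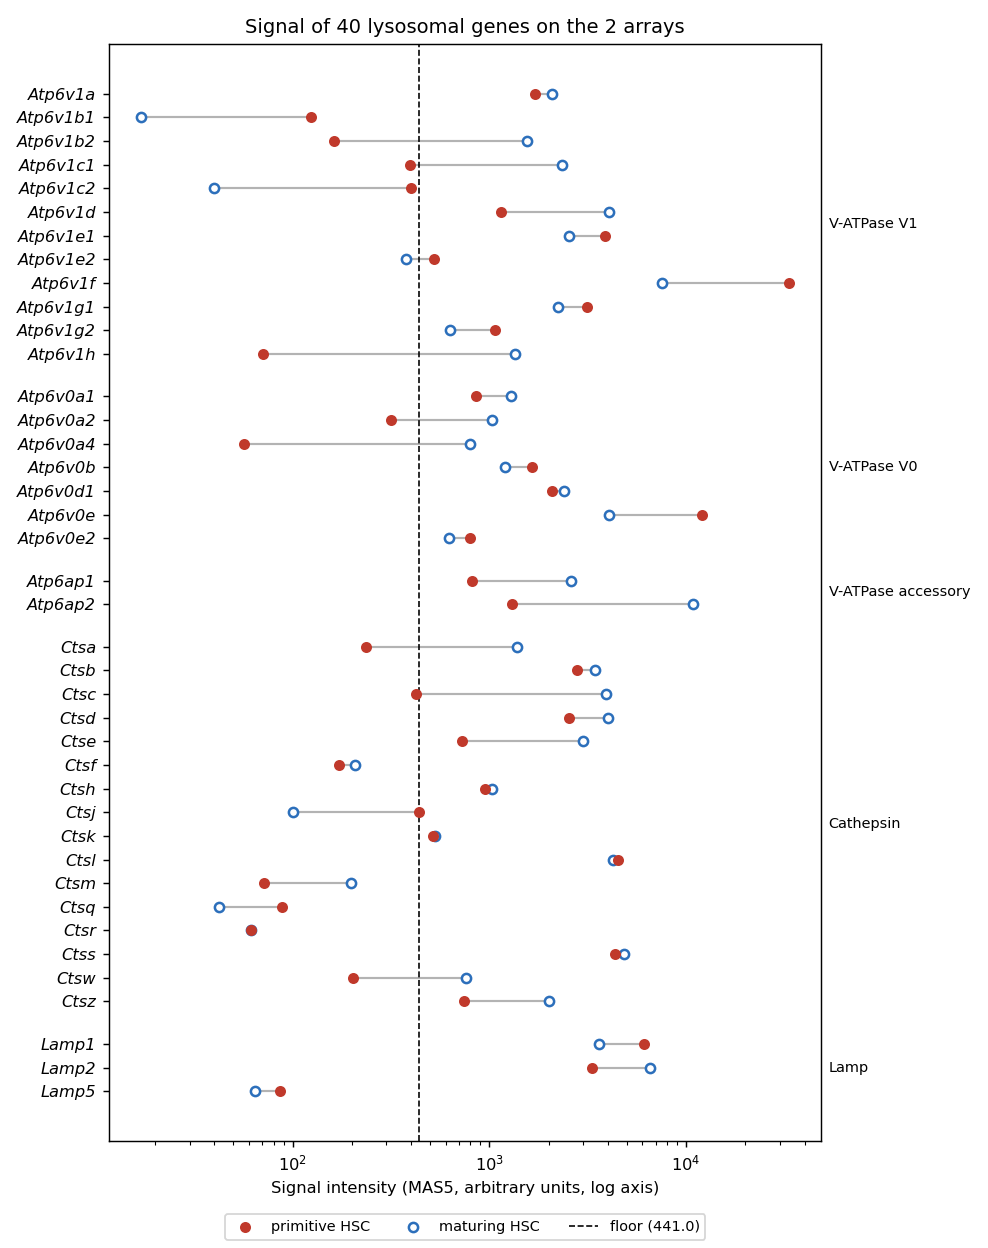
Signal intensity (log axis, arbitrary units) of each of the 40 genes in primitive HSC (filled red) and maturing HSC (open blue), 1 array each, grouped by family. The dashed line is the floor of 441.0. The red point lies left of the blue one for Ctsc, Ctse and both accessory genes, and right of it for Atp6v1f and Atp6v0e.

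The V1 sector held the widest spread. Of its 12 genes, 10 were measured, 5 higher and 5 lower in primitive HSC, and their median ratio was -0.02 on the log2 scale. Under control scaling that median was -0.87, and of the 5 higher genes only Atp6v1f stayed higher. Atp6v1f encodes subunit F, a small part of the central rotor shaft. It read 33354 in primitive HSC and 7519 in maturing HSC, 4.44-fold higher, with a log2 ratio of 2.15 that was 1.60 after lowess and 1.71 after quantile normalization. Its partner in the shaft, subunit D, went the other way. Atp6v1d read 1151 in primitive HSC and 4055 in maturing HSC, 3.52-fold lower, and its 3 probe sets had ratios of -1.82, -1.68 and -0.86.

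The ATP-splitting head showed no common direction. Atp6v1a, the catalytic subunit A, read 1708 in primitive HSC and 2090 in maturing HSC (log2 ratio -0.29), and its other probe set stood at 0.26. These probe sets disagree in sign and both lie within the spread between probe sets. Atp6v1b2, the widely expressed form of the non-catalytic subunit B, read 161 in primitive HSC and 1550 in maturing HSC, at least 3.51-fold lower. A further probe set of Atp6v1b2 read 472 in primitive HSC and 177 in maturing HSC, a bound of 0.10 the other way, so its direction is not settled. The kidney-type form Atp6v1b1 was below the floor on both arrays.

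Subunits C and H control the reversible joining of V1 to V0 and its activity, and both were lower in primitive HSC. Atp6v1c1 read 397 in primitive HSC and 2337 in maturing HSC, at least 5.30-fold lower. Its other probe sets were lower as well. One of them was above the floor on both arrays, with 448 in primitive HSC and 1288 in maturing HSC (log2 ratio -1.52), and the other had a bound of -0.45. Atp6v1h read 71.1 in primitive HSC and 1345 in maturing HSC, at least 3.05-fold lower on its only probe set. Atp6v1c2 was below the floor on both arrays.

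The peripheral stalk, built from subunits E and G, was slightly higher in primitive HSC and turned lower under control scaling on the probe sets used. Atp6v1e1 read 3883 in primitive HSC and 2535 in maturing HSC, a log2 ratio of 0.62 in the main setting and -0.36 by control scaling. Its other measured probe set read 3327 in primitive HSC and 1598 in maturing HSC, a log2 ratio of 1.06 that lay outside the spread between probe sets. Atp6v1g1 read 3149 and Atp6v1g2 1063 in primitive HSC, against 2224 and 634 in maturing HSC. Their log2 ratios of 0.50 and 0.75 became -0.47 and -0.23 by control scaling. Atp6v1e2, a testis-enriched form, read 524 in primitive HSC and 377 in maturing HSC, a bound of 0.25 that became -0.28 by control scaling. On the probe sets used, the ratios of Atp6v1e1, Atp6v1g1 and Atp6v1g2 lay within the spread between probe sets.

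All 7 genes of the membrane sector V0 were measured, 3 higher and 4 lower in primitive HSC, with a median of -0.19. The 5 above the floor on both arrays had a median of 0.36. Atp6v0e, the small membrane subunit e, read 12044 in primitive HSC and 4075 in maturing HSC. It was 2.96-fold higher, and kept that direction by control scaling with a log2 ratio of 0.59. Its paralogue Atp6v0e2 read 802 in primitive HSC and 626 in maturing HSC (log2 ratio 0.36, and -0.62 by control scaling). The proteolipid gene Atp6v0b, a component of the proton-carrying ring, read 1653 in primitive HSC and 1198 in maturing HSC. Its 3 probe sets were all higher, the lowest at 0.43, but the ratio of 0.46 became -0.51 by control scaling. Atp6v0d1, which couples the shaft to the ring, had nearly equal signals, with 2085 in primitive HSC and 2385 in maturing HSC.

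The a subunit holds the proton half-channels and directs the pump to its membrane, and its forms are encoded by separate genes. Atp6v0a1 read 853 in primitive HSC and 1291 in maturing HSC (log2 ratio -0.60). Atp6v0a2 read 316 in primitive HSC and 1036 in maturing HSC, at least 2.35-fold lower, while another of its probe sets had a bound of 0.60 in the other direction. Atp6v0a4, a kidney form, read 56.5 in primitive HSC and 795 in maturing HSC, at least 1.80-fold lower. Tcirg1, the a3 form of lysosomes and osteoclasts, does not carry an Atp6 symbol. It read 1285 in primitive HSC and 831 in maturing HSC, a log2 ratio of 0.63 that became -0.35 by control scaling.

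Both accessory genes were lower in primitive HSC under every setting that gave a value. Atp6ap2, also known as the (pro)renin receptor, is needed for assembly of the pump. It read 1310.1 in primitive HSC and 10787 in maturing HSC, 8.23-fold lower. All 3 of its probe sets were above the floor on both arrays, with log2 ratios of -3.04, -2.64 and -2.46. Over the alternative settings its ratio ran from -4.02 to -2.64 and stayed past 4-fold in 9 of 9. Atp6ap1, the glycosylated accessory protein Ac45, read 819 in primitive HSC and 2613 in maturing HSC, 3.19-fold lower on its only probe set.

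Among the cathepsins, 10 of 11 measured genes (90.9%) were lower in primitive HSC, where 47.3% of all measured genes were, and 1 (Ctsl) was nearly equal. The median ratio was -0.65 on the log2 scale. In the main setting 4 of the 11 (36.4%) were lower by 2-fold or more, where 17.6% of all measured genes were. By control scaling 9 were, but there the median of all measured genes was itself -0.74. The share of all measured genes past 2-fold was not counted in that setting, so the 9 have no background to be read against. Of the 8 above the floor on both arrays, 6 had ratios within the spread between probe sets in the main setting, and the median of the 8 was -0.23. After quantile normalization the median of the measured cathepsins was -0.42, and Ctsh and Ctsk turned to 0.04 each. By control scaling that median was -1.30.

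The lowest ratio of the whole set belonged to Ctsc, which encodes dipeptidyl peptidase I, the activator of granule serine proteases in neutrophils, mast cells and cytotoxic lymphocytes. Ctsc read 423 in primitive HSC, just under the floor, and 3895 in maturing HSC, at least 8.83-fold lower. Ctsc has a single probe set, so choosing among probe sets could not change its bound, and the deposited values were already scaled alike. The bound stayed past 4-fold in 8 of 9 alternative settings, these included, the exception being -1.92 with the floor at percentile 75. The serine carboxypeptidase gene Ctsa, whose product protects lysosomal beta-galactosidase and neuraminidase, read 235 in primitive HSC and 1379 in maturing HSC, at least 3.13-fold lower.

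Both aspartic proteases were lower in primitive HSC. Ctse, the endosomal cathepsin E, read 729 in primitive HSC and 3005 in maturing HSC, 4.12-fold lower. Its other probe set was below the floor on both arrays, and the median of the pair gave a ratio of -1.60. Ctsd, the main aspartic protease of lysosomes, read 2555 in primitive HSC and 4021 in maturing HSC, 1.57-fold lower and within the spread between probe sets.

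The cysteine cathepsins besides Ctsc differed less. Ctsz, a carboxypeptidase also called cathepsin X, read 739 in primitive HSC and 2016 in maturing HSC, 2.73-fold lower, and its 3 probe sets were all lower. Ctsb read 2784 in primitive HSC and 3440.2 in maturing HSC (log2 ratio -0.31), but another probe set of Ctsb was at least 3.99-fold lower. Ctsw, known from natural killer and cytotoxic T cells, read 203 in primitive HSC and 765 in maturing HSC, at least 1.73-fold lower, and its bound moved to -1.91 on the log2 scale with the floor at percentile 25. The 4 remaining measured genes had ratios close to 0 in the main setting, while by control scaling Ctss stood at -1.12, Ctsh at -1.09 and Ctsk at -0.77. Ctss, the invariant chain protease of antigen-presenting cells, read 4364 in primitive HSC and 4835 in maturing HSC. Ctsl, a broadly expressed endopeptidase, read 4531 in primitive HSC and 4254 in maturing HSC, a log2 ratio of 0.09 that became -0.88 by control scaling. Ctsh, an aminopeptidase, read 954 in primitive HSC and 1036 in maturing HSC. Ctsk, the collagen-cleaving protease of osteoclasts, read 516 in primitive HSC and 530 in maturing HSC. Ctsf and the rodent placental genes Ctsj, Ctsm, Ctsq and Ctsr were below the floor on both arrays.

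The 2 measured Lamp genes, the major proteins of the lysosomal membrane, differed in opposite directions in the main setting. Lamp1 read 6074 in primitive HSC and 3620 in maturing HSC, a log2 ratio of 0.75 that became -0.23 by control scaling. Lamp2, whose A form is the receptor of chaperone-mediated autophagy, read 3320 in primitive HSC and 6561 in maturing HSC, 1.98-fold lower. All 4 probe sets of Lamp2 were lower, with log2 ratios from -1.33 to -0.38. Lamp5 was below the floor on both arrays.

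**Figure D2:**
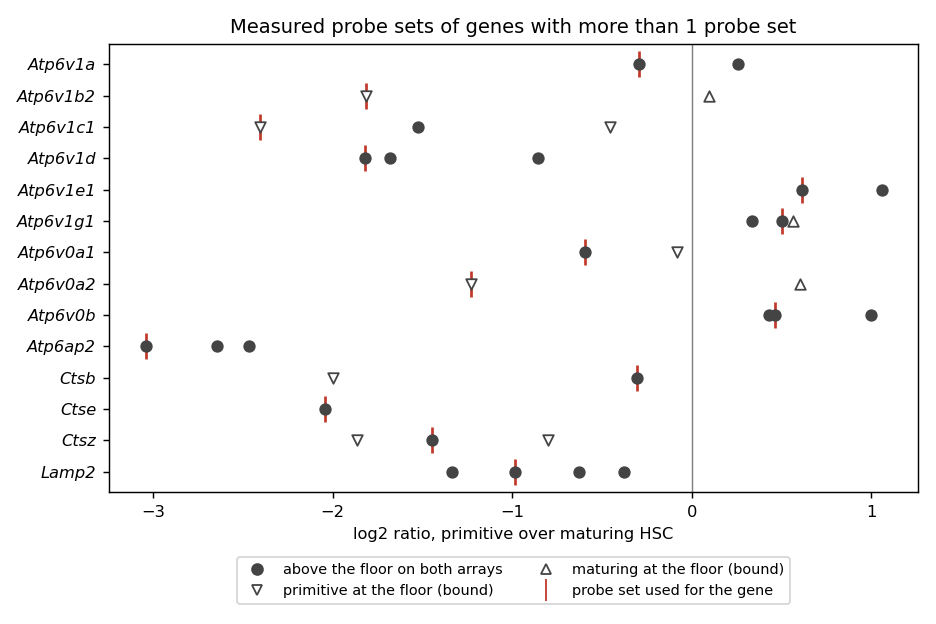
Log2 ratio, primitive over maturing HSC, of each measured probe set of the 14 genes with more than 1 probe set. Circles were above the floor on both arrays, triangles are bounds and the red bar marks the probe set used. Atp6ap2, Atp6v1d and Lamp2 lie left of 0 with all of their probe sets, while Atp6v1a, Atp6v1b2 and Atp6v0a2 lie on both sides.

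How far the probe sets of a gene agree is the only repeat measurement within an array. The 40 genes had 69 probe sets, of which 53 were measured. In 10 of 13 genes with more than 1 measured probe set (76.9%), all of them went the same way, where 55.6% of 2764 such genes did over the whole array. The exceptions were Atp6v1a, Atp6v1b2 and Atp6v0a2. A total of 19 measured members rested on a single measured probe set, among them Atp6v1f, Ctsc and Ctse.

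A feature shared by many lysosomal genes is the E-box CACGTG, the core letters read by the transcription factors TFEB and TFE3. It was searched for in the 250 bases before and 50 bases after each annotated start in GRCm38.p6, with promoter sequence from RefSeq. The motif equals its own reverse complement, so both strands are covered. Of 31 members with a promoter in the RefSeq table, 9 held it (29.0%), where 10.8% of 9887 array genes did. The longer TCACGTGA, which contains CACGTG, was found in 5 of 31 (16.1%) against 1.76%. The longest form searched, TCACGTGA with a further G before it and C after it, was found in 0 of 31 against 0.556%. A match describes letters only. The sequences below are shown because they carry these letters, with CACGTG in capitals. Lamp1 and Ctsd are given over the 250 bases before the start (Lamp1, chr8:13158911-13159160, plus strand, with 4 copies, and Ctsd, chr7:142387828-142388077, minus strand, with 2 copies). The others are stretches of 30 bases from Ctsa (chr2:164833749-164833778, plus strand), Atp6v0e (chr17:26676387-26676416, plus strand), Atp6v0d1 (chr8:105566050-105566079, minus strand), Atp6v1a (chr16:44139373-44139402, minus strand) and Atp6v0b (chr4:117887330-117887359, minus strand, the nearer of 2 copies).
Lamp1: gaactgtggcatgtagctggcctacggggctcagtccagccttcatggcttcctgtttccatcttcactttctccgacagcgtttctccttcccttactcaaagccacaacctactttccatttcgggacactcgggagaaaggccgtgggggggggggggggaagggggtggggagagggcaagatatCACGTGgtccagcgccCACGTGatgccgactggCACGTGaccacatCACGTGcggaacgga
Ctsd: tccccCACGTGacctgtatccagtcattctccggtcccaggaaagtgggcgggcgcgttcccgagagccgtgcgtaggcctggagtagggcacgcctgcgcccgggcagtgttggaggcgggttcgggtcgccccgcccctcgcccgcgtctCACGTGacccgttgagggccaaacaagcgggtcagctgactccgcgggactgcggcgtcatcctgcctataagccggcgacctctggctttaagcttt
Ctsa: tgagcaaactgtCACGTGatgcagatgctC
Atp6v0e: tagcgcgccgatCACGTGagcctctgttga
Atp6v0d1: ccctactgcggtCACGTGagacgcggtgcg
Atp6v1a: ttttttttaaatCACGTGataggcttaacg
Atp6v0b: gggtcggcgcatCACGTGcgccggtcaggt

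The last capital in the Ctsa stretch begins a further copy. In Lamp1 the 4 copies begin 61, 45, 28 and 15 bases before the start. In Ctsd they begin 245 and 98 bases before it. The remaining matches were in Ctsl, 236 bases before the start, and in Ctsf. The 8 measured members with the motif had ratios from -1.64 for Ctsa to 1.56 for Atp6v0e, 4 higher and 4 lower, with a median of -0.05. The 15 measured members with a promoter entry that lacked it had ratios from -3.14 to 2.15, 5 higher and 10 lower, with a median of -0.60. The ranges overlap over most of their length, and Atp6v1f, Ctsc and Atp6ap2, the genes with the most extreme ratios, had no CACGTG in this window. Tfeb and Mitf, which encode factors that bind this motif, were below the floor on both arrays, Mitf just below it in primitive HSC (427). Tfe3 had no probe set annotated to a single gene, so its signal is not known.

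Genes that work beside these proteins were taken from lists of the same compartment. Of 30 measured lysosomal hydrolases and activators, 15 were higher and 15 lower in primitive HSC, with a median of -0.02. At least 4-fold higher was 1 (3.33%, against 3.45% of all measured genes) and at least 4-fold lower 1 (3.33%, against 4.69%). Smpd1, acid sphingomyelinase, read 4345 in primitive HSC and 946 in maturing HSC, 4.59-fold higher, and its log2 ratio of 2.20 was 1.23 by control scaling. The lysosomal acid phosphatase gene Acp2 was at least 4.08-fold lower (log2 -2.03), but its ratio was -0.98 by the median of its probe sets and -0.81 with the floor at percentile 75. Glb1, the beta-galactosidase protected by Ctsa, was at least 3.72-fold lower, a log2 bound of -1.90 that was -0.68 with the floor at percentile 75. Dnase2a was at least 3.33-fold higher, with a maturing value of 429 just under the floor. Its log2 value of 1.74 became 0.80 by control scaling and 0.52 with the floor at percentile 75. Of 17 other lysosomal membrane proteins, 10 were higher and 7 lower, with a median of 0.08. Sidt2 was 4.08-fold, Laptm4a 3.27-fold and Cd68 2.42-fold higher, and by control scaling their log2 ratios were 1.05, 0.74 and 0.30. Laptm4b was 3.91-fold lower, with log2 ratios of its 3 probe sets from -1.97 to -0.33.

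Of 5 measured genes for vacuolar ATPase assembly or unlisted subunits, 0 passed 4-fold, where 8.13% of all measured genes did, and the median was 0.63. Besides Tcirg1, Rogdi stood at 0.66 and turned to -0.31 by control scaling, Tmem199 at a bound of -0.55 and Dmxl1 at a bound of 0.10. Mannose 6-phosphate tagging and sorting, which delivers new hydrolases to the lysosome, had 5 measured genes and a median of -0.46. The sorting receptor gene Sort1 read 307 in primitive HSC and 2345 in maturing HSC, at least 5.32-fold lower, with another probe set at -0.51. Igf2r stood at 0.75 and at -0.22 by control scaling, and Gga2 at a bound of -0.46.

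Of 10 measured genes of the Ragulator, the Rag GTPases and mTORC1, with Flcn, 6 were higher and 4 lower, with a median of 0.26. Lamtor2, a Ragulator subunit that anchors Rag GTPases to the lysosome, read 4165 in primitive HSC and 629 in maturing HSC, 6.62-fold higher, while its other probe set stood at 0.35. Rheb, the GTPase that activates mTORC1, was 3.27-fold higher and Lamtor5 2.35-fold higher. By control scaling the log2 ratios of Lamtor2, Rheb and Lamtor5 were 1.75, 0.74 and 0.26. Rragc was 2.28-fold lower. Inhibitors of cysteine cathepsins had 3 measured genes. Cystatin B (Cstb) read 16830 in primitive HSC and 4412 in maturing HSC, a log2 ratio of 1.93 that was 0.68 after lowess and 0.08 by control scaling. Cystatin C (Cst3) read 4775 in primitive HSC and 2147 in maturing HSC, a log2 ratio of 1.15 that was 0.18 by control scaling. Cst7, which encodes cystatin F, was at least 1.55-fold lower. Autophagy had 8 higher and 10 lower of 18 measured genes, with a median of -0.19. Past 4-fold were 0 of the 18, where 8.13% of all measured genes were. Gabarap was 3.60-fold higher, while Ulk1, Becn1 and Wipi2 were 3.23-fold, 2.96-fold and 2.78-fold lower.

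**Figure D3:**
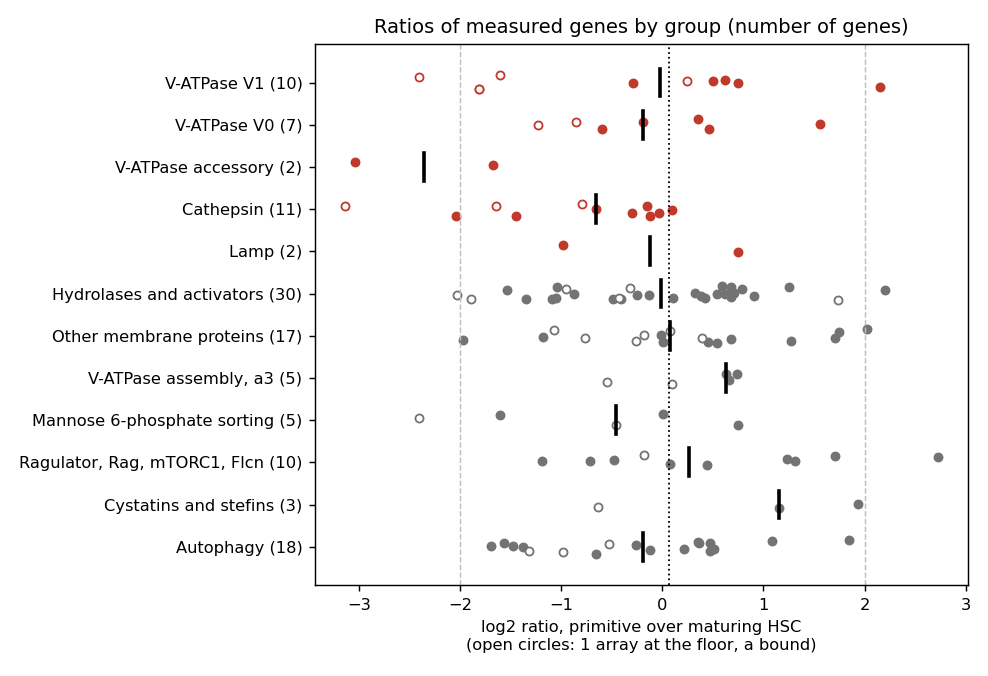
Log2 ratio, primitive over maturing HSC, of each measured gene in the 5 families (red) and in 7 related lists (grey), with the number of genes in parentheses. Filled circles were above the floor on both arrays, open circles are bounds, black bars are group medians, the dotted line is the median of all measured genes (0.07) and dashed lines mark 4-fold. Cathepsins lie at or left of 0 except Ctsl at 0.09, which was -0.88 by control scaling, and Ctsh and Ctsk were at 0.04 after quantile normalization.

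Several of these genes are abundant in mature blood cells, so markers of such cells were read beside them. Beyond the brightest and the undetected ones, the markers named here were chosen after their values were seen. Ratios and counts of the marker lists are from the main setting, and the lists were not recounted by control scaling. The hybridisation controls had a median log2 ratio of 0.97. Smaller positive ratios, such as that of Lyz1 (0.68), could turn lower by that scaling. All 14 neutrophil and monocyte genes were measured, 9 higher and 5 lower in primitive HSC. At least 4-fold higher were 0 (against 3.45% of all measured genes) and at least 4-fold lower 4 (28.6%, against 4.69%). The summed signal of the list, carried by a few bright probe sets, was 177122 in primitive HSC and 102504 in maturing HSC. The brightest, S100a8, Lyz1 and Camp, were each higher, by 2.39-fold, 1.60-fold and 1.97-fold. Those past 4-fold were Mpo (270.1 in primitive HSC and 2587 in maturing HSC), Csf3r, Ms4a3 and Chil3, with log2 ratios or bounds of -2.55, -2.55, -2.66 and -2.21, and Ltf stood at -1.63.

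Of 14 macrophage and dendritic cell genes, 9 were measured, 8 higher in primitive HSC and 1 lower, with 5 at least 2-fold higher. Those 5 make up 55.6%, against 15.6% of all measured genes. The summed signal of the list was 10677 in primitive HSC and 5398 in maturing HSC. Apoe was at least 3.55-fold, Cd86 at least 3.08-fold, Bst2 at least 2.67-fold, Msr1 at least 2.59-fold and Cd68 2.42-fold higher. The 1 lower gene was Csf1r, the brightest of the list, with 1159 in primitive HSC and 1847 in maturing HSC. Its log2 ratio was -0.67, and its probe sets ran from -1.05 to 0.21. Itgax, C1qa, C1qc, Cd163 and Marco were below the floor on both arrays. Of 13 T and natural killer cell genes, 10 were measured, 8 higher in primitive HSC and 2 lower, with 4 at least 4-fold higher. Those 4 make up 40%, against 3.45% of all measured genes. The summed signal of the list was 62008 in primitive HSC and 13177 in maturing HSC. The chemokine gene Ccl5 read 37795 in primitive HSC and 1511 in maturing HSC, a log2 ratio of 4.64. The T cell receptor component gene Cd3d read 8673 in primitive HSC and 44.2 in maturing HSC, at least 19.7-fold higher, whereas Cd3e, Cd3g and Cd2 were below the floor on both arrays. Gata3 and Klrd1 were at least 4.68-fold and 4.33-fold higher. Nkg7, among the brightest of the list, read 6299 in primitive HSC and 7933 in maturing HSC, a log2 ratio of -0.33. The other lower gene, Gzmb, stood at -0.65.

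Of 6 osteoclast genes, 5 were measured, 4 higher in primitive HSC and 1 lower (sums 3981 in primitive HSC and 2295 in maturing HSC), with Acp5 below the floor. Of 6 mast cell and basophil genes, 5 were measured, 3 higher and 2 lower (sums 4583 in primitive HSC and 5833 in maturing HSC), with Fcer1a below the floor. The part of such cells in the lysosomal ratios was not tested. All 9 stem cell genes were measured, 6 higher in primitive HSC and 3 lower. Procr read 11571 in primitive HSC and 1895 in maturing HSC, and Abcg2 was at least 3.84-fold higher. The 3 lower genes were Kit (3802 in primitive HSC and 5053 in maturing HSC), Cd34 (3320 in primitive HSC and 6237 in maturing HSC) and Meis1, at least 2.72-fold lower.

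**Figure D4:**
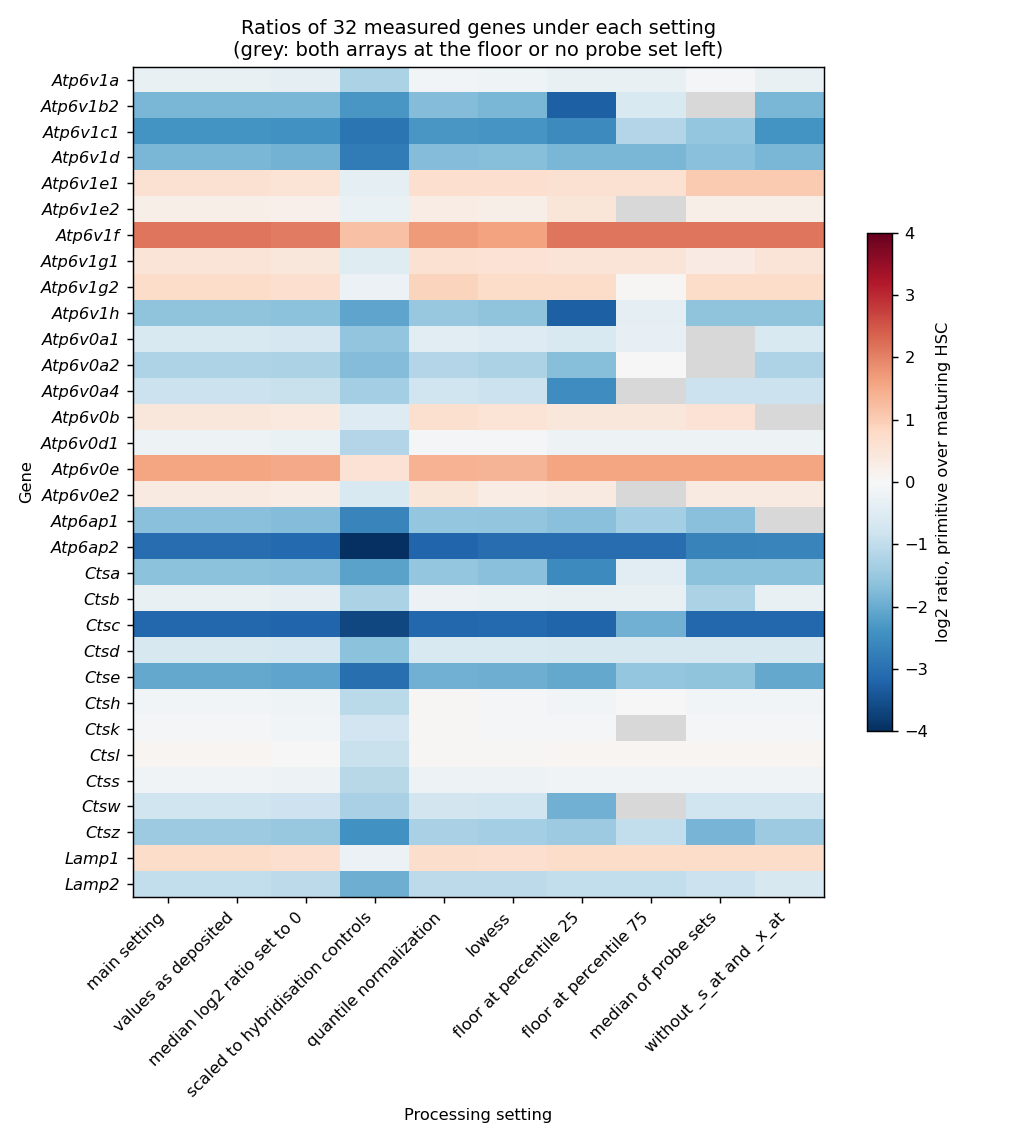
Log2 ratio, primitive over maturing HSC, of the 32 measured genes (rows) under the main setting and 9 alternatives (columns), from blue (lower in primitive HSC) to red (higher), with grey where no value was left. Atp6ap2 and Ctsc are blue in each column. Atp6v1f and Atp6v0e are red in each column, and the paler red genes such as Lamp1 and Atp6v1g1 turn blue when scaled to the hybridisation controls.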

How the data were processed

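Signal intensities of 22690 Affymetrix probe sets on 2 arrays were made by the authors with MAS5, per the submitters' processing notes, and deposited on a linear scale. MAS5's version is not stated there, and detection calls were not used here. The 2% trimmed means were 1000.6 (primitive) and 1000.4 (maturing), so the deposited values were already scaled alike, which hides any difference in RNA content of the cells. Array medians were 425.4 and 454.8. Of the probe sets, 64 were controls, 20380 had 1 gene symbol and 691 had several. Symbols were checked by Entrez identifier against RefSeq for 20351, and 0 changed. Those with no symbol or several were not used.

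Both arrays were set to the same trimmed mean, floored at the pooled median (441.0) and compared as log2 ratios, with a 4-fold threshold. The number of arrays limits the precision. The steps were run on simulated data with planted changes and no added noise, which checks the arithmetic only. Named were all members, up to 4 genes of each related list with the largest ratio or bound and agreeing probe sets, and the brightest or undetected markers. The ratio of a list includes bounds. Members and lists were chosen with earlier results of these data known. A comparison with protein length was planned and not run, since protein sequences were not used here. Alternatives are described in the closing section. Python 3.11.15, numpy 2.4.6, pandas 2.3.3, statsmodels 0.14.6 and matplotlib 3.10.9 were used.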

Additional observations from a re-analysis of the deposited data

How the results depend on the processing

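Alternatives (9) used deposited values without rescaling, centring on the median ratio, the 18 hybridisation controls, quantile normalization, lowess, floors at percentiles 25 and 75, each gene's median probe set, and only probe sets specific to 1 transcript group. Thresholds of 2-fold and 8-fold were tried for counts. Of 32 members, 22 kept their direction in every setting that gave a value. Of the 10 others, 8 turned lower by the hybridisation controls (whose median log2 ratio was 0.97), and Ctsh and Ctsk turned higher by quantile normalization. The count of members at least 4-fold higher, 1 in the main setting, was 0 by hybridisation controls, quantile normalization, lowess and at 8-fold, and 2 at 2-fold. Of all measured genes, 305 of 8852 were at least 4-fold higher in the main setting. By hybridisation controls 91 of 9101 were, by quantile normalization 319 of 8873 and by lowess 289 of 8848. The count of members at least 4-fold lower, 4 in the main setting, was 10 by hybridisation controls, 8 with the floor at percentile 25 and 1 at percentile 75. It was 2 with the median of probe sets, 11 at 2-fold and 2 at 8-fold. The whole array moved as well, with 415 of 8852 genes at least 4-fold lower in the main setting. By hybridisation controls 1231 of 9101 were, at percentile 25 998 of 11226, at percentile 75 126 of 4987 and with the median of probe sets 291 of 7940. The count of cathepsins at least 2-fold lower, 4 in the main setting, was 9 by hybridisation controls and 2 with the floor at percentile 75, a comparison chosen after seeing the data. The matching shares of all measured genes were not counted in those settings. Hybridisation controls also moved the accessory median to -3.33 and the Lamp median to -1.09. Of the 720 genes past 4-fold on the whole array, 42.4% were higher in primitive HSC, 6.88% by hybridisation controls and 56.7% with the floor at percentile 75. The V1 median was above 0 after lowess (0.04), quantile normalization (0.09), at a percentile 25 floor (0.48) and by each gene's median probe set (0.25). The V0 median was 0.36 with the median of probe sets, and the Lamp median 0.06 with specific probe sets only. The causes were not tested. Of 278 single-gene values for members, 243 lay within 0.82 of the main value and 35 did not, 22 of them by hybridisation controls and 11 from the floor. Some of the 278 could hardly move. Deposited values were already scaled alike, and choosing among probe sets does not change a gene with a single one. Bounds depend on the floor by construction, so those for Atp6v1b2, Atp6v1h and Ctsa ran from -3.26, -3.26 and -2.55 at percentile 25 to -0.59, -0.39 and -0.43 at percentile 75. Of the 26 named genes of related lists, 23 kept their direction, and 35 of their 226 values moved by more than 0.82, 19 of them by hybridisation controls. No paired analysis was possible because each group had 1 array.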
